A study of Rattus norvegicus with 9 samples.

Results

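The miRNAs described here are the rat serum miRNAs named miR-126a, miR-126b, miR-221 or miR-222, taken from the deposited table by name with any arm suffix. Of 276 mature miRNAs in the table, 5 matched, namely miR-126a-3p, miR-126a-5p, miR-221-3p, miR-221-5p and miR-222-3p, and the names of miR-126b and of the other arm of miR-222 matched 0 rows. Serum came from wild-type male Sprague-Dawley (SD) rats, 6 with pulmonary artery banding (PAB), in which a fixed ring narrows the pulmonary artery and loads the right ventricle (RV), and 3 with sham surgery. All rats were sampled at week 4 after surgery, and each gave 1 small RNA library. The study operated on more rats than were sequenced, and how these rats were chosen is not given in the sources used here.

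miR-126 is a miRNA of endothelial cells, processed from an intron of Egfl7, a gene for a protein secreted by endothelium, and it is known for keeping vessels intact by restraining inhibitors of VEGF signalling. miR-221 and miR-222 are made from neighbouring hairpins on the X chromosome and are known for restraining the stem cell factor receptor KIT and the cell cycle inhibitor p27, in endothelium as well as in vascular smooth muscle, where they favour proliferation. In humans all of them are also found in platelets and other blood cells, so that serum levels do not point to 1 source. In serum, fewer cells of a type and less RNA released per cell cannot be told apart.

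The mature sequences, from RefSeq (build GRCr8, not the build that the reads were aligned to), are shown because the seed, bases 2 to 8 in capitals, decides which mRNAs a miRNA can pair with and groups the 5 members. All 5 names matched.
rno-miR-126a-3p: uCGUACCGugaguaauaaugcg
rno-miR-126a-5p: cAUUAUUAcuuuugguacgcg
rno-miR-222-3p: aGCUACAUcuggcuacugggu
rno-miR-221-3p: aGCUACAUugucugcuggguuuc
rno-miR-221-5p: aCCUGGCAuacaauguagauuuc
miR-222-3p and miR-221-3p have the same seed, and of the 693 mature rat miRNAs in that RefSeq table no other has it. Compared from the 5′ end without gaps, they have the same 8 bases at the start and differ at 10 of the 21 positions of the shorter one. In GRCr8, miR-222-3p lies at chrX:6022682-6022702 and miR-221-3p at chrX:6023246-6023268, both on the plus strand. miR-126a-3p lies at chr3:29813219-29813240 on the plus strand, inside the span of Egfl7, and the seeds of its arms occur in no other rat miRNA of the table.

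Across the 9 libraries the 5 members had 3334 reads, 0.762% of all miRNA reads. The miRNA reads per library were 19477 to 64455 (median 39871) in the PAB group and 56231 to 65313 (median 65196) in the sham group. RPM values, the reads scaled to the library total, were deposited beside the counts and refer to a much larger total, with a miRNA share of 0.101% to 0.412% in the PAB group and 0.332% to 0.517% in the sham group. A level in RPM therefore also moves with the share of miRNA in that total. The trimmed mean of M-values (TMM) scaling used in the test across miRNAs sets the libraries against each other on their miRNA reads alone. miR-126a-3p, the defining endothelial miRNA, had reads in every library.

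Serum miR-126a-3p was low in 5 of the 6 rats with PAB and high in the rat of PAB library 3. It had 17, 23, 425, 12, 22 and 31 reads in PAB libraries 1 to 6, against 227, 870 and 270 reads in sham libraries 1 to 3. In RPM these were 0.883, 1.47, 27.5, 0.783, 1.15 and 2.42 in the PAB group, against 18.0, 52.0 and 15.9 in the sham group. PAB libraries 1, 2, 4, 5 and 6 were below the lowest sham library, while PAB library 3 lay inside the sham range, so that the groups overlapped. Of the 162 miRNAs tested, 23.5% likewise had at least 5 of 6 PAB libraries below the lowest sham library in RPM, so this arrangement is common in these libraries. Mean levels were 5.69 ± 10.7 RPM in the PAB group (SD, n = 6) and 28.6 ± 20.2 RPM in the sham group (SD, n = 3). The PAB mean was 0.199 times the sham mean, and 0.0468 times without PAB library 3, which held 80.2% of the PAB reads of this miRNA.

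On the log2(RPM + 0.1) scale the mean of miR-126a-3p in the PAB group differed from that of the sham group by −3.48. The exact permutation test, two-sided over 84 splits, gave p = 0.0357, with an adjusted p of 0.156 over the 162 miRNAs. On that scale 24.7% of the miRNAs tested had an exact p under 0.05 on the low side. After TMM scaling the difference of log2 CPM (counts scaled to the TMM library size) was −2.15 (exact permutation p = 0.155, adjusted p = 0.512), and 5 PAB libraries were below the sham range, as in at least 5 of 6 for 16.0% of all miRNAs tested, and PAB library 3 above it. Without PAB library 3 the TMM difference was −2.95, with an exact permutation p of 0.0179, unadjusted, the smallest that 56 splits allow. Leaving out the only PAB library not below the sham range sets the groups apart by that choice, so this p is no support for a difference. With any other single library left out, the exact permutation p was 0.179 to 0.357. The fitted log2FC from edgeR's quasi-likelihood test, PAB over sham, was −0.70 with a standard error of 2.15 (adjusted p = 0.931), and −3.03 without PAB library 3 (adjusted p = 0.433).

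miR-222-3p was near 0 in 4 rats with PAB and higher in 1 rat with PAB than in any other animal. Its reads in PAB libraries 1 to 6 were 3, 7, 2, 1, 745 and 34, against 166, 386 and 19 in sham libraries 1 to 3. In RPM the levels were 0.156, 0.448, 0.129, 0.065, 38.9 and 2.65 in the PAB group, against 13.1, 23.1 and 1.12 in the sham group. PAB libraries 1 to 4 lay below the lowest sham library, PAB library 6 inside the sham range and PAB library 5 above it. At least 4 of 6 PAB libraries were below the lowest sham library in RPM for 42.6% of the miRNAs tested. PAB library 5 held 94.1% of the PAB reads of miR-222-3p, where it was the 20th most abundant miRNA of the library, against 45th to 56th in the other PAB libraries.

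The mean level of miR-222-3p was 7.06 ± 15.6 RPM in the PAB group (SD, n = 6) and 12.4 ± 11 RPM in the sham group (SD, n = 3), and the medians were 0.302 and 13.1 RPM. The log2FC of miR-222-3p was 0.95 (standard error about 2.5, adjusted p = 0.931 from edgeR), while the means of its log2 TMM CPM differed by −1.95 (exact two-sided permutation p = 0.369). The opposite signs come from the same 9 values, since the fitted log2FC follows mean counts, which PAB library 5 dominates, and the mean of log2 values weighs the 6 rats alike. The fitted value was −2.44 without PAB library 5 (adjusted p = 0.616), and it was also below 0 with library totals in place of TMM (−0.35) and with the totals implied by RPM (−0.82). No direction can be given for miR-222-3p from these libraries.

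miR-221-3p, which has the seed of miR-222-3p, was detected at few reads. It had 1, 1, 1, 1, 0 and 4 reads in PAB libraries 1 to 6, against 15, 47 and 2 reads in sham libraries 1 to 3. The RPM values were 0.052, 0.064, 0.065, 0.065, 0 and 0.312 in the PAB group, against 1.19, 2.81 and 0.118 in the sham group. All PAB libraries except PAB library 6 were below the lowest sham library, and PAB library 6 was between sham libraries 3 and 1. In RPM 23.5% of the miRNAs tested had at least 5 of 6 PAB libraries below the lowest sham library. With other scalings fewer PAB libraries of miR-221-3p were below it, 4 in TMM CPM (at least 4 for 32.1% of all miRNAs) and 3 as a share of miRNA reads (at least 3 for 45.1%). At this depth a single read carries little information. The exact 95% Poisson interval was 0.00132 to 0.289 RPM for the 1 read in PAB library 1 and 0.0143 to 0.426 RPM for the 2 reads in sham library 3, and these intervals overlap. The 0 reads in PAB library 5 allow up to 0.157 RPM, taken as 3 reads.

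Mean levels of miR-221-3p were 0.093 ± 0.110 RPM in the PAB group (SD, n = 6) and 1.37 ± 1.35 RPM in the sham group (SD, n = 3). The log2FC was −2.01 with a standard error of 1.09 (adjusted p = 0.345 from edgeR), and it was below 0 in all 20 alternatives in which it could be fitted (−3.81 to −1.09). These include the main fit under another threshold and reuse the same libraries, so they are not independent. The exact two-sided permutation test gave p = 0.0833 for a difference of −1.90 in log2 TMM CPM, and p = 0.0238 for −2.42 in log2(RPM + 0.1) (adjusted p = 0.397 and 0.148 over the 162 miRNAs). Sham library 2 held 73.4% of the sham reads of miR-221-3p, and without it the log2FC was −1.09 (adjusted p = 0.884).

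**Figure D1:**
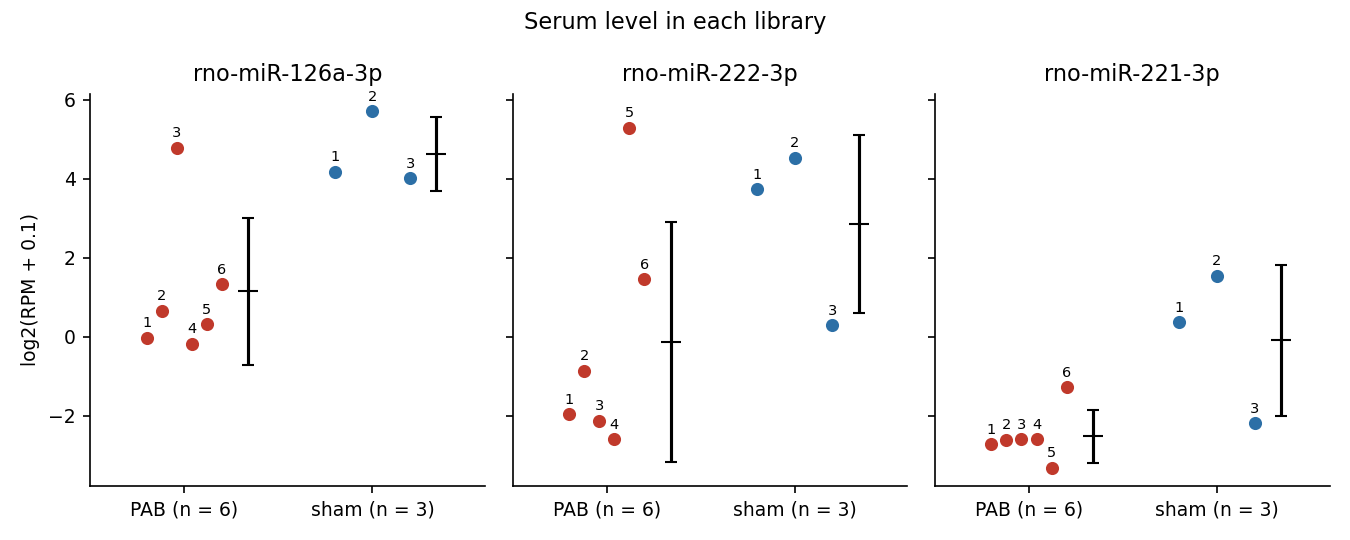
Level of miR-126a-3p, miR-222-3p and miR-221-3p in each serum library, as log2(RPM + 0.1) on the vertical axis, for PAB (red, n = 6) and sham (blue, n = 3). Numbers are library numbers, and black marks give the mean with the SD. PAB library 3 stands above the other PAB libraries for miR-126a-3p (27.5 RPM) and PAB library 5 for miR-222-3p (38.9 RPM).

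Of the 3 members above the filter, reads in at least 3 libraries, edgeR called 0 at an adjusted p ≤ 0.05 with |log2FC| ≥ 1, where 1.23% of all miRNAs tested were called lower and 0% higher. None of the 3 had an unadjusted p under 0.05 in the main edgeR fit or with limma-voom. That edgeR fit gave one on the low side to 10.5% and on the high side to 4.32% of all miRNAs. The log2FC of the 3 members was below 0 in 2 of 3 cases, against 53.1% of all miRNAs. DESeq2 also called 0 of them and gave no p for miR-126a-3p. TMM scaling matters for the size of these values, because the median log2FC of the whole table tested was −0.15 under TMM and fell to −1.54 when the totals behind RPM were used instead. With those totals the members had log2FC of −2.33 (miR-126a-3p), −0.82 (miR-222-3p) and −3.81 (miR-221-3p), the last with an adjusted p of 0.057. Unadjusted, the edgeR p of miR-221-3p was 0.0109 with those totals and 0.0401 with library totals. In these fits 50 and 32 of the 162 miRNAs had an unadjusted p under 0.05 on the low side.

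**Figure D2:**
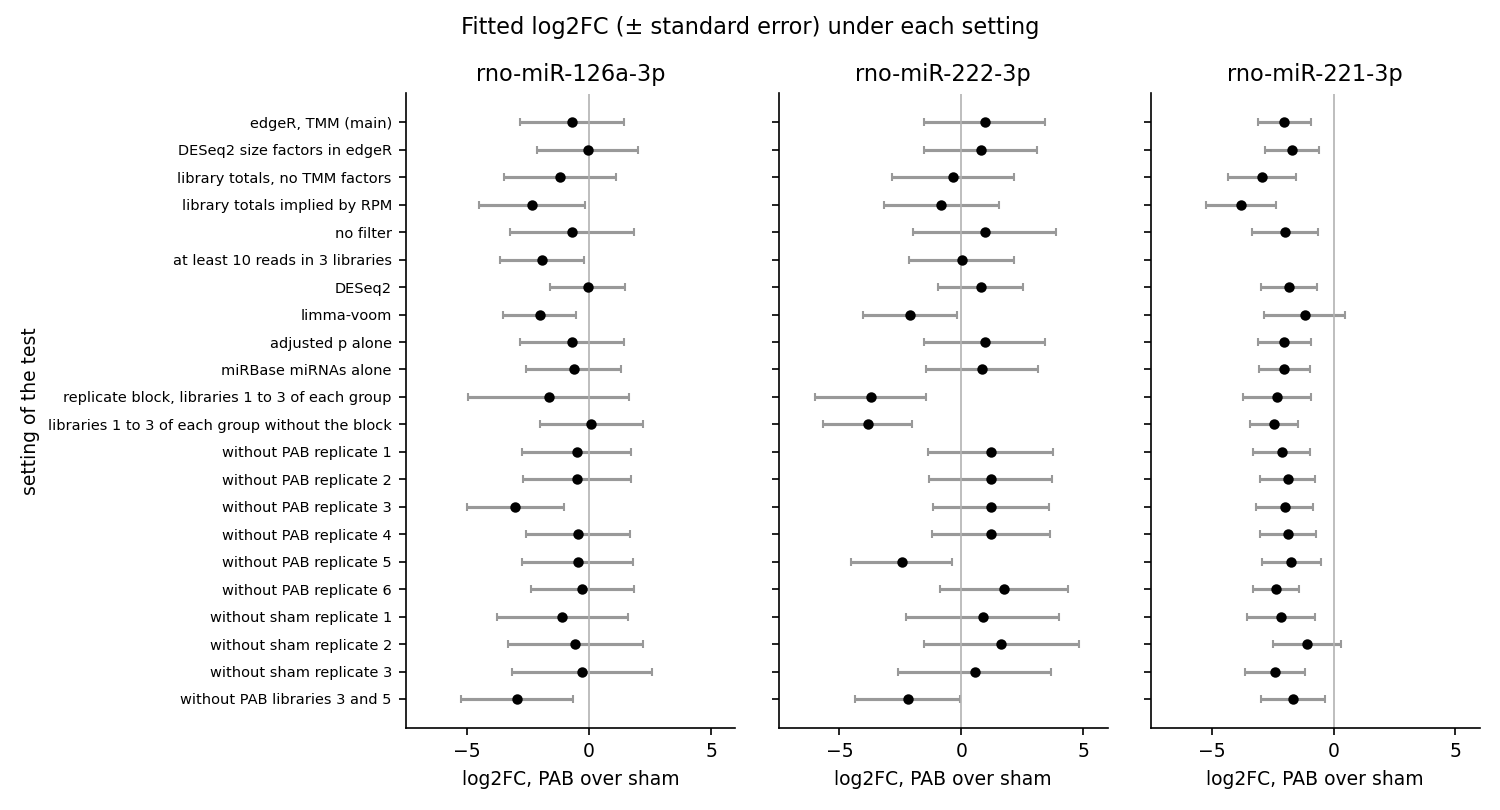
Fitted log2FC, PAB over sham, of the 3 members (horizontal axis, points, with bars of 1 standard error) under each setting of the test (vertical axis). miR-221-3p is below 0 in every setting in which it could be fitted. miR-222-3p changes sign in some, such as without PAB library 5 and with library totals, but not with DESeq2's size factors (0.79).

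The minor arms were almost absent. miR-126a-5p, the arm of miR-126a with fewer reads here, had 1 read in all, in sham library 1, which is 0.0527% of the 1898 reads of both arms (exact Clopper-Pearson 95% interval 0.00133% to 0.293%). miR-221-5p had 1 read, in sham library 2, or 1.37% of 73 reads (0.0347% to 7.4%). Both had 0 reads in the 6 PAB libraries and were below the filter, and Fisher's exact two-sided test on libraries with reads gave p = 0.333 for each. With a read in only 1 of 9 libraries this test cannot go below 0.333, so it could not show a difference. A count of 0 over the PAB group allows up to 0.0307 RPM and a count of 0 over the sham group up to 0.0648 RPM, so the single sham reads are within counting error.

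Within a library, the ratio of miR-222-3p to miR-221-3p lay in a narrow range in the sham group and a wide one in the PAB group. For each read of miR-221-3p there were 11.1, 8.21 and 9.50 reads of miR-222-3p in sham libraries 1 to 3. In the PAB group there were 3, 7, 2, 1 and 8.50 in PAB libraries 1, 2, 3, 4 and 6, the first 4 of them resting on a single read of miR-221-3p. The 9.50 of sham library 3 rests on 2 such reads. PAB library 6, with 4 such reads, lay inside the sham range. Pooled without PAB library 5, the ratio was 5.88 in the PAB group and 8.92 in the sham group. Apart from PAB library 5, whether the ranges differ beyond counting error was not tested. In PAB library 5 there were 745 reads of miR-222-3p and 0 of miR-221-3p, so that miR-222-3p was at least 248-fold higher against 3 reads of miR-221-3p. The log2 ratio of miR-221-3p to miR-222-3p was −2.96 ± 3.86 in the PAB group (SD, n = 6) and −3.14 ± 0.25 in the sham group (SD, n = 3), a difference of 0.18 (exact two-sided permutation p = 0.94, adjusted p = 0.94 over the 2 ratios computed). Without PAB library 5 the difference was 1.69 (exact permutation p = 0.0536, unadjusted). PAB library 5 had the lowest log2 ratio of the PAB group, so leaving it out moves the difference by that choice. This p is therefore no support for a difference. With any other single library left out the difference was −0.41 to 0.26, with an exact permutation p of at least 0.893.

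**Figure D3:**
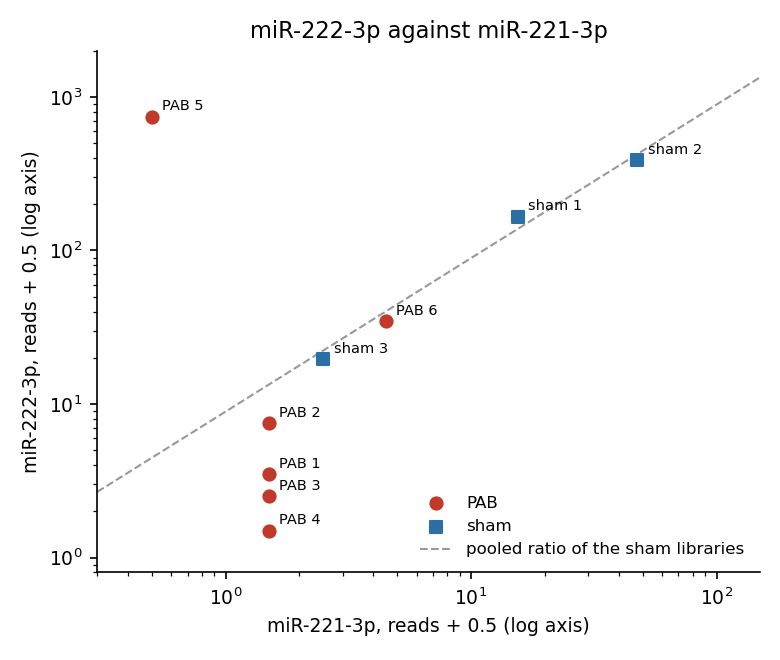
Reads of miR-222-3p (vertical log axis, 0.5 added) against reads of miR-221-3p (horizontal log axis, 0.5 added) in the PAB (red circles) and sham (blue squares) libraries. The dashed line is the pooled sham ratio of 8.92 reads of miR-222-3p per read of miR-221-3p, and PAB library 5 lies far above it with 745 and 0 reads.

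The second ratio set the endothelial miR-126a-3p against miR-221-3p. There were 17, 23, 425, 12 and 7.75 reads of miR-126a-3p per read of miR-221-3p in PAB libraries 1, 2, 3, 4 and 6, and 22 reads against 0 in PAB library 5. The sham libraries had 15.1, 18.5 and 135. The log2 ratio was 4.50 ± 2.02 in the PAB group (SD, n = 6) and 4.94 ± 1.58 in the sham group (SD, n = 3), a difference of −0.44 (exact two-sided permutation p = 0.774, adjusted p = 0.94). The high ratios in PAB library 3 and sham library 3 stand at 1 and 2 reads of miR-221-3p. miR-126a-3p was the most abundant of the 3 members in every library other than PAB libraries 5 and 6, where miR-222-3p had more reads.

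Other miRNAs of endothelium and vessel wall were taken from a list of 14, of which 8 matched a row and 6 were above the filter. edgeR called 0 of these 6 in either direction, 4 had a log2FC below 0, and their median log2FC was −1.14, beside 86 of 162 below 0 and a median of −0.15 for all miRNAs tested. At an unadjusted p under 0.05 from edgeR 1 of the 6 was lower, beside 10.5% of all miRNAs tested. This was miR-100-5p, a miRNA of the miR-99 and miR-100 family that restrains mTOR, whose log2FC was −5.17 ± 1.89 (standard error), at an adjusted p of 0.155 from edgeR. It had 1, 1, 1, 0, 1 and 3 reads in PAB libraries 1 to 6, against 157, 415 and 2 in sham libraries 1 to 3, so that its sham level rested on the libraries in which miR-221-3p was also highest.

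miR-10a-5p, which restrains inflammatory signalling in endothelium, was lower in every PAB library than in every sham library in RPM. It ranged from 0.626 to 7.56 RPM (median 1.24) in the PAB group and from 13.1 to 31.3 RPM (median 22.5) in the sham group, and its log2FC was −2.60 ± 2.11 (standard error), at an adjusted p of 0.56 from edgeR. The groups were apart in this direction in RPM for 9.88% of all miRNAs tested. As a share of miRNA reads the groups overlapped for miR-10a-5p. PAB library 6 had 97 of 29833 miRNA reads, a larger share than the 166 of 65313 in sham library 1. miR-23b-3p had a log2FC of −2.18 (adjusted p = 0.441), with 0 to 12 reads in the PAB group and 8 to 154 in the sham group. miR-27b-3p, from the same cluster, had a log2FC of 0.83 (adjusted p = 0.931). Its reads were 4, 3, 2, 3, 686 and 145 in PAB libraries 1 to 6, against 318, 365 and 14 in sham libraries 1 to 3, high in PAB library 5 as was miR-222-3p. miR-92a-3p, of the miR-17-92 cluster, had 76 to 1038 reads in the PAB group and 968 to 1163 in the sham group, with a log2FC of 0.13. The smooth muscle miRNAs miR-143-3p and miR-145-5p were barely present, miR-145-5p at 13 reads in all with a log2FC of −0.11.

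**Figure D4:**
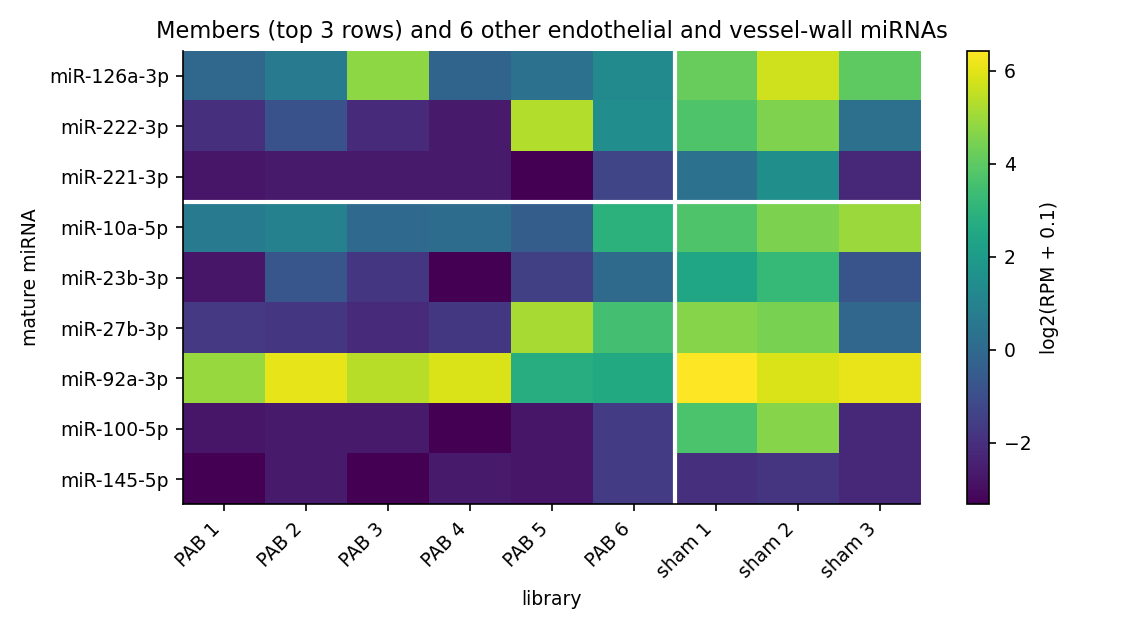
Colour gives log2(RPM + 0.1) for the 3 tested members (top) and the 6 other tested endothelial and vessel-wall miRNAs (below), in the PAB libraries (left of the white line) and the sham libraries (right). PAB library 3 is bright for miR-126a-3p alone among the members and PAB library 5 for miR-222-3p and miR-27b-3p.

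Platelet miRNAs, 4 of 4 in the table, had a summed level of 113 to 1335 RPM (median 535) in the PAB group and 968 to 2040 RPM (median 1527) in the sham group, so that the groups overlapped, and their part in the results was not tested. In the edgeR fit 2 of the 4 had a log2FC below 0 and the median was −0.17, beside −0.15 for all miRNAs tested. PAB library 3, with the highest miR-126a-3p of the PAB group, had 176 RPM of platelet miRNAs, the second lowest of the 9 libraries. PAB library 5 had 763 RPM, and miR-223-3p, a platelet and myeloid miRNA with 683 reads there, had 0 or 1 read in each other library. The platelet sum rested mostly on miR-191a-5p and miR-24-3p. They had 2163 and 551 of its 2717 reads in PAB library 3, and 10492 and 3426 of 14613 in PAB library 5. The red blood cell miRNAs, 4 of 5 in the table, summed to 33.3 to 209 RPM (median 101) in the PAB group and 7.60 to 50.8 RPM (median 49.1) in the sham group, and their part was not tested either. In the edgeR fit 1 of these 4 red blood cell miRNAs, miR-25-3p, had a log2FC below 0 (−3.86), and the median was 2.51. Their sum rested on different miRNAs in different libraries. miR-16-5p had 1541 and 2440 reads in PAB libraries 5 and 6, and 2 to 5 in the other PAB libraries. Of the platelet list 0 of 4 and of the red blood cell list 0 of 4 were called by edgeR.

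By its distribution over the libraries, miR-221-3p was most like miR-93-5p, with an overlap of 93.2%. The overlap is the sum, over the 9 libraries, of the smaller of the shares that each miRNA has of its own summed RPM, and 116 miRNAs with at least 50 reads were compared, with a median of 36.7%. Next came miR-15b-5p (91.9%), miR-23b-3p (90.9%), miR-1b (89.8%) and miR-499-5p (89.3%). miR-126a-3p (66.8%) and miR-222-3p (51.2%) were less like it. miR-221-3p had 60.1% of its summed RPM in sham library 2 and 25.4% in sham library 1, and the libraries share depth and composition with every miRNA compared, so the overlap describes these 9 libraries only.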

How the data were processed

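The authors sequenced serum small RNA as single-end 50-base reads, aligned clean reads to Rnor_6.0 with Bowtie 2.2.5 and compared them with miRBase and Rfam. The submitters' notes instead name Bowtie2 2.2.9, DESeq2 and the human build GRCh38.p13 for these rat reads. Which description applies to the counts could not be settled. The counting rule and its use of strand are not given in the sources used here. The deposited table by the authors gives whole read counts per mature miRNA, not normalized, and RPM, the count over a library total that is not in the table (implied total 12625538 to 19249228 reads). Of 276 miRNAs, 58 are predictions of the authors.

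The quasi-likelihood test of edgeR 4.0.16 (R 4.3.3) with TMM factors was fitted to the counts of 162 miRNAs, those with reads in 3 or more of the 9 libraries, and p was adjusted by Benjamini-Hochberg. Calls were made at an adjusted p ≤ 0.05 with |log2FC| ≥ 1, as in the study. Standard errors are |log2FC| over the square root of F. For single members, means were compared by exact permutation (two-sided, 84 splits) of log2 TMM CPM (prior count 0.5) and log2(RPM + 0.1), adjusted over all 162 miRNAs. The reads of 2 members were compared as a log2 ratio with 0.5 read added. Floors are 3 counts. Intervals are exact at 95%, and both cover counting error only. Any 2 libraries of a group differed far beyond sampling noise. The procedures were tested on simulated data. Every matching row is named, with all tested members of the related list and the 5 miRNAs most like miR-221-3p. Members and lists were chosen with earlier results of these data known. Alternatives were DESeq2 1.42.0, limma 3.58.1 (voom), other scalings and filters, miRBase miRNAs alone, a replicate block and leaving out each library. The comparison without PAB libraries 3 and 5, and that of libraries 1 to 3 of each group without the block, were chosen after seeing the data. The remaining steps ran in Python 3.11.15 (scipy 1.17.1, numpy 2.4.6, matplotlib 3.10.9, pandas 2.3.3).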

Additional observations from a re-analysis of the deposited data

Results flagged for a closer look

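In the PAB group, 4 of 5 measures of the members had 1 library far from the others by Dixon's criterion, under which chance alone would mark about 5% of groups of normally distributed values. In RPM the same criterion marked 45.1% of the 162 miRNAs tested, so that such a library is common in this table. On the log2(RPM + 0.1) scale it marked 31.5% of them, and 2 of the 3 members. PAB library 3 had 27.5 RPM of miR-126a-3p, with a gap to the next library of 0.939 of the whole range. PAB library 5 had 38.9 RPM of miR-222-3p, with a gap of 0.933 of the range. PAB library 6 had 0.312 RPM of miR-221-3p, with a gap of 0.792, at 4 reads. The log2 ratio of miR-221-3p to miR-222-3p was −10.5 in PAB library 5, with a gap of 0.721, and rests on the same miR-222-3p reads. The log2 ratio of miR-126a-3p to miR-221-3p was not marked, with a gap of 0.497.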

How the results depend on the processing

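Over all miRNAs, edgeR called 2 lower and 0 higher in the PAB group. The number called lower was 0 with DESeq2's size factors in edgeR, with at least 10 reads in 3 libraries and with limma-voom, 4 with DESeq2, 5 with miRBase miRNAs alone, 6 with library totals, 10 without a filter and 23 with RPM-implied totals. The number called higher was 1 without a filter and 9 with DESeq2, and 0 in the other fits. With 1 library left out, 0 to 2 were called lower and 0 higher. None of the members was called in any fit that gave it a p.

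The log2FC of miR-222-3p was −0.35 with library totals, −0.82 with RPM-implied totals and −2.10 with limma-voom. With 1 library left out it was −2.44 (without PAB library 5) to 1.74, and without PAB libraries 3 and 5 it was −2.20, with 0 miRNAs called over the table. The log2FC of miR-126a-3p was −3.03 to −0.27 with 1 library left out and −0.06 with DESeq2, and that of miR-221-3p −2.40 to −1.09 with 1 library left out. miR-221-3p was below the filter of 10 reads. The log2 ratio of miR-221-3p to miR-222-3p had a difference of −0.41 to 1.69 with 1 library left out, and that of miR-126a-3p to miR-221-3p −1.17 to 0.47.

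With the library number as a replicate block (libraries 1 to 3 of each group) edgeR called 0 miRNAs lower, and the log2FC was −3.71 for miR-222-3p, −1.66 for miR-126a-3p and −2.31 for miR-221-3p. The same 6 libraries without the replicate block gave 0 calls, and log2FC of −3.85 for miR-222-3p, 0.094 for miR-126a-3p and −2.45 for miR-221-3p. Same-numbered libraries did not deviate together (correlations −0.093, −0.369 and 0.057), so the numbers were not taken as pairs.

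Of the 3 members tested, depth limits miR-221-3p most. Thinned to 19477 reads per library, it would be expected in 3.41 of the 6 PAB and 2.57 of the 3 sham libraries, and the minor arms, with 1 read each, in 0 PAB and about 0.30 sham libraries. With 3 sham libraries the exact test cannot go below 0.0119.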

Other observations

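The miRNAs closest to the other members in their distribution over the libraries were named after their values were seen. miR-222-3p, with 48.8% of its summed RPM in PAB library 5, was most like miR-151-5p (overlap 82.2%), miR-27b-3p (81.5%) and miR-3596d (78.5%), against a median of 30.9% over 116 miRNAs, and its overlap with miR-221-3p was 51.2%. miR-126a-3p, with 22.9% of its summed RPM in PAB library 3 and 43.3% in sham library 2, was most like miR-135b-5p (76.1%) and miR-320-3p (75.7%), which have 59 and 85 reads in all, against a median of 40.9%.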
